A study of Mus musculus with 7 samples.

Results

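SAGA and ATAC are coactivator complexes that acetylate histones, and both are built around the acetyltransferases KAT2A and KAT2B. SAGA also carries a deubiquitinase module that removes ubiquitin from histone H2B, a large activator-binding subunit, TRRAP, and a core of histone-fold and TAF-like proteins in which TAF10 sits. ATAC shares the acetyltransferases, TADA3 and SGF29 with SAGA, uses TADA2A in place of TADA2B, and adds a set of subunits of its own. The mRNA of 30 genes encoding these subunits or their relatives was followed here in the fetal liver. At the stage used, the fetal liver is a site of blood formation rich in erythroid cells. The 30 genes were chosen by function from a list of SAGA and ATAC subunits without Taf10 and Supt7l, and all 30 were found among the 39017 genes of the count files. They fall into 6 submodules. The acetyltransferase module of SAGA has 5 genes and the core 5, Trrap stands alone, the deubiquitinase module has 9, a splicing-factor module 2 and ATAC 8.

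RNA was sequenced from mouse fetal livers of strain C57BL/6 at stage E12.5, in 7 libraries of 3 genotypes. The 2 TAF10KO livers carried, by their titles, lox-flanked Taf10 alleles on both chromosomes and EpoCre, whereas the series text describes a lox allele over a knockout allele with EpoR-Cre. Of the 3 TAF10HET livers, all with EpoCre, replicate 1 is labelled lox_wt, a lox allele opposite an intact one, and replicates 2 and 3 are labelled wt_ko. The 2 WT livers had lox alleles on both chromosomes and no Cre, so lox alleles and Cre are not matched across the groups. EpoR-Cre is driven from the erythropoietin receptor gene and acts in erythroid cells, so the lox alleles of other liver cells are not its target. A knockout allele, as in the wt_ko label or in the series text, is carried by every cell. Each title also holds a 6-digit code in the form of a date. The second code covers 4 libraries (TAF10KO replicate 2, TAF10HET replicates 2 and 3, WT replicate 2) and the first covers 3 (replicate 1 of each genotype). Whether a code marks a day of collection, of library preparation or something else is not stated. In TAF10HET livers the date code and the allele cannot be told apart.

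Each library held between 18008391 and 43401474 counts in genes, and all 30 members were among the 15800 genes tested. Libraries separated by date code along the first principal component, which held 63.2% of the variance. TAF10KO replicate 2 and TAF10HET replicate 1 were male by Xist. Markers of several cell types differed between date codes. Summed endothelial markers stood at 169 to 216 CPM (counts scaled to a common library total with TMM factors) on the second date code against 324 to 471 CPM on the first. Summed mesenchymal markers stood at 177 to 321 CPM against 1289 to 2393 CPM. Summed erythroid markers overlapped, at 34532 to 50696 CPM against 24216 to 37615 CPM. By genotype the erythroid sums were 24216 to 34532 CPM in TAF10KO, 37615 to 50696 CPM in TAF10HET and 30839 to 46006 CPM in WT. No marker of the 7 cell types examined was at 0 in any library.

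Taf10 itself, the deleted gene, had 37.8 and 43.8 CPM in TAF10KO replicates 1 and 2. It had 78.1, 63.7 and 63.0 CPM in TAF10HET replicates 1 to 3, and 72.0 and 96.5 CPM in WT replicates 1 and 2. The labels do not say which exons the lox sites flank, and the counts cover the whole gene. Both TAF10KO values lay below all others, with a log2 difference of -1.04 from WT (SE 0.17), at an adjusted p of 0.054 in edgeR's quasi-likelihood test. Differences were fitted with genotype and date code as terms, and p-values were adjusted over all 15800 genes (Benjamini-Hochberg) and called under 0.05. In these bulk livers, fewer cells of a type and less RNA per cell cannot be told apart.

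The 30 subunits were expressed over a wide range of levels. Per exon length, their mean over the 7 libraries ran between 0.42 and 55.4 FPKM (here CPM divided by the summed exon length in kilobases), with a median of 8.93 FPKM against 3.81 FPKM for all genes tested, and 25 of the 30 lay above that overall median. The highest were Pole3, a histone-fold protein of ATAC, of DNA polymerase epsilon and of the CHRAC remodelling complex, at 55.4 ± 5.67 FPKM (SD, n = 7) and Atxn7l3b, a relative of the deubiquitinase adaptor ATXN7L3, at 35.7 ± 1.40 FPKM. Next came Sf3b3, a subunit of both SAGA and the splicing factor SF3b, at 32.0 ± 2.97 FPKM, Wdr5, a beta-propeller protein also found in the SET1 and MLL methyltransferase complexes, at 30.8 ± 2.87 FPKM, and Dr1, a histone-fold protein that also acts with DRAP1 as a repressor of transcription, at 29.3 ± 4.42 FPKM. At the other end, Usp27x and Usp51, which encode alternative deubiquitinases of the USP22 family, averaged 0.42 ± 0.18 and 0.42 ± 0.081 FPKM. In the order of levels, the ranges over the 7 libraries overlapped in 24 of the 29 pairs of neighbours, so most adjacent ranks were not separated by more than their spread.

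**Figure D1:**
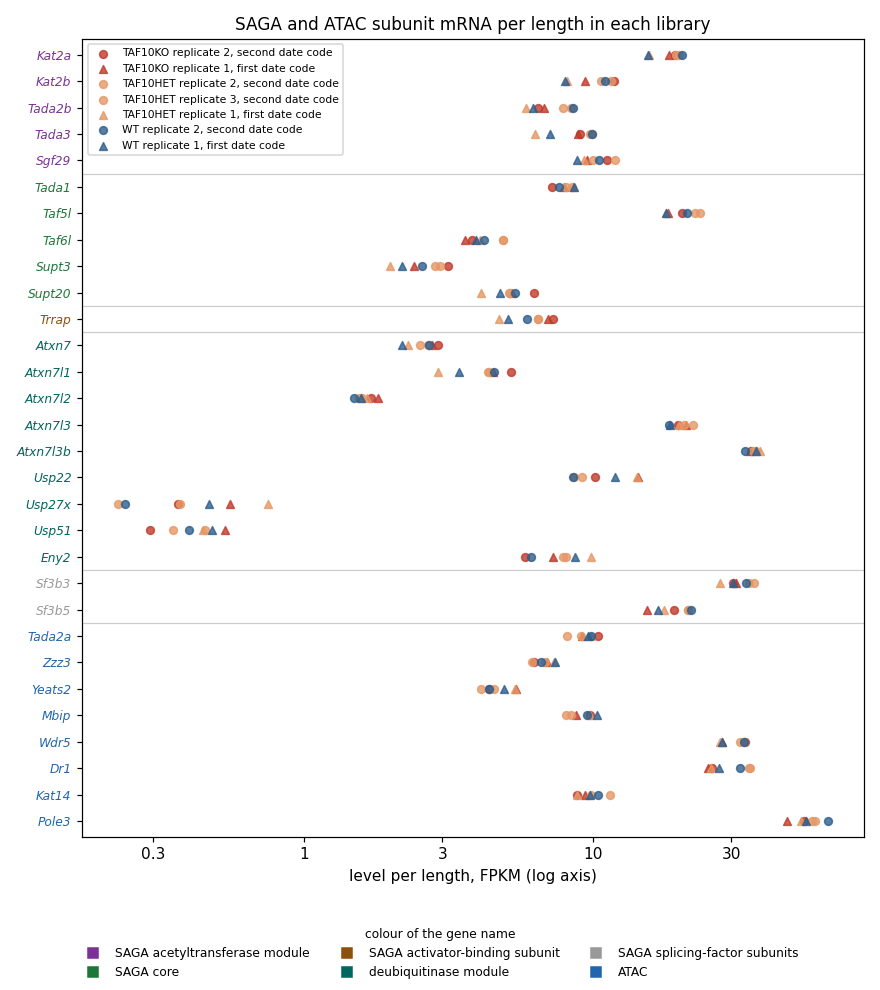
Level per length of the 30 subunit genes in FPKM on a log axis, 1 point per library, with colour for genotype, circles for the second and triangles for the first date code, and genes grouped by submodule. Pole3 at 46.7 to 64.9 FPKM is the highest, while Usp27x and Usp51 lie below 1 FPKM in every library.

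Levels per length depend on the length used. With the longest protein-coding transcript in place of the summed exons, the level of 11 of the 30 members moved by more than 1.5 times, and Sf3b3 at 77.1 FPKM then stood above Pole3 at 62.7 FPKM. On the summed-exon scale, the acetyltransferase Kat2a had 1.63 to 1.96 times the level of its paralogue Kat2b in every library. The ATAC adaptor Tada2a had 1.03 to 1.67 times the level of its SAGA counterpart Tada2b. Among the deubiquitinases, Usp22, the main catalytic subunit, exceeded Usp27x by 18.9 to 40.3 times and Usp51 by 18.9 to 34.8 times. Each of these orders held in all 7 libraries. Some of the values are uncertain because exons overlap other genes and the strand setting of the counting is not given. The share of exon bases in common with another gene was 25.6% for Tada1, 14.7% for Kat14, 14.0% for Atxn7l3b, 12.8% for Sgf29, 11.8% for Supt20, 10.8% for Tada2b and 6.47% for Eny2.

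No subunit gene was called different between TAF10KO and WT livers. Comparing TAF10KO with WT asks whether the mRNA of the 30 members moved when Taf10 was deleted in erythroid cells. The count was 0 of 30 members, against 0.608% of all genes tested in edgeR's quasi-likelihood fit (0.481% higher, 0.127% lower). At an unadjusted p under 0.05 there were 4 members, Trrap, Atxn7l1, Usp22 and Pole3, which is 13.3% of the members beside 17.9% of all genes. DESeq2 called 1 member, Trrap, as higher, beside 3.73% of all genes. The log2 differences ran between -0.25 for Pole3 and 0.43 for Usp27x, with a median of 0.0045 beside 0.028 for all genes, and 17 of the 30 were positive. The 95% interval of the difference lay within 1 log2 unit of 0 for 29 members and within 0.5 for 25. The interval of Usp27x, -0.35 to 1.21, was the only one to pass 1 log2 unit. Among cell-type markers in this comparison, 1 of 11 erythroid was called lower and 2 of 8 endothelial higher in TAF10KO. None was called in the other marker lists. The part of cell makeup in the members' values was not tested.

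**Figure D2:**
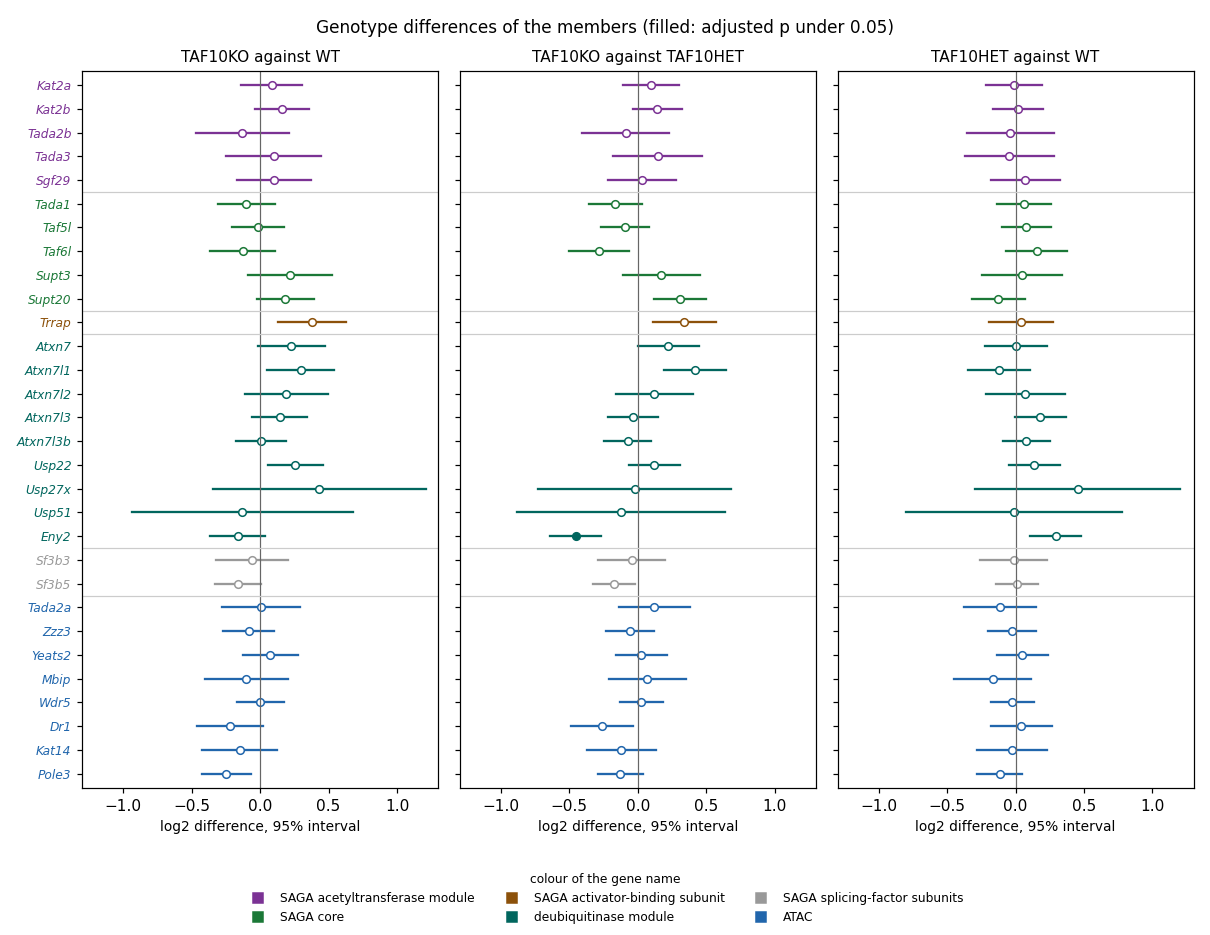
Fitted log2 differences with 95% intervals for the 30 members in 3 genotype comparisons, with filled points past an adjusted p of 0.05 and names coloured by submodule. Most intervals reach 0, the only filled point is Eny2 in TAF10KO against TAF10HET at -0.45, and the widest intervals belong to the low genes Usp27x and Usp51.

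By submodule, the differences between TAF10KO and WT were of either sign. In the acetyltransferase module the median log2 difference was 0.098, with 4 of 5 genes positive, none past the test and adjusted p-values of 0.36 to 0.77. In the core the median was -0.016, with 2 of 5 positive. In the deubiquitinase module it was 0.19 with 7 of 9 positive, the splicing-factor genes Sf3b3 and Sf3b5 gave -0.059 and -0.16, and in ATAC it was -0.091 with 3 of 8 positive. None of these genes passed the test, so the submodule medians are given as descriptions.

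Trrap, the pseudokinase scaffold that contacts activators in SAGA and in the TIP60 complex, had the smallest adjusted p of the 30 members in this comparison. It had 146 and 151 CPM in TAF10KO replicates 1 and 2, against 98.0, 134 and 134 CPM in TAF10HET replicates 1 to 3 and 106 and 123 CPM in WT replicates 1 and 2. Both TAF10KO libraries lay above every other library. The fitted log2 difference from WT was 0.38 (SE 0.11, adjusted p = 0.15 in edgeR), and it stood at 0.46 on the first and 0.29 on the second date code. Trrap was called without TAF10KO replicate 2 or without TAF10HET replicate 1, in a fit without a filter on low counts, and when embryo sex was added to the fit. Without TAF10KO replicate 1, Dr1 was called lower instead. Each fit that left out a TAF10KO library kept 1 such library, which was assumed to vary like the other groups, and called 7.9% (without replicate 1) and 3.25% (without replicate 2) of all genes. The exons of Trrap sum to 20859 bases, and genes tested with over 6514 exon bases had a median log2 difference of 0.078 between TAF10KO and WT, beside -0.037 for those under 2462 bases. The part of gene length in the value for Trrap was not tested.

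Atxn7l1, a paralogue of the deubiquitinase anchor Atxn7, had 45.2 and 52.3 CPM in TAF10KO replicates 1 and 2, 29.1, 43.7 and 43.4 CPM in TAF10HET replicates 1 to 3 and 34.3 and 45.7 CPM in WT replicates 1 and 2. Within each date code the TAF10KO library was the highest. Across date codes both TAF10KO values lay above all TAF10HET values, while TAF10KO and WT overlapped. The log2 difference was 0.30 from WT (SE 0.10, adjusted p = 0.21) and 0.42 from TAF10HET (SE 0.097, adjusted p = 0.090), both in edgeR's test. Pole3 had differences of the opposite sign. It had 95.3 and 109.6 CPM in TAF10KO replicates 1 and 2, 107, 117 and 119.8 CPM in TAF10HET replicates 1 to 3 and 111 and 132 CPM in WT replicates 1 and 2. Each TAF10KO library lay below the other libraries of its date code, with a log2 difference from WT of -0.25 (SE 0.076, adjusted p = 0.17). With embryo sex as a term Trrap, Atxn7l1 and Pole3 were all called, in a fit where 17.2% of all genes were. The exons of Atxn7l1 sum to 10049 bases and those of Pole3 to 2040, in the longer and the shorter length class given for Trrap. The part of gene length in the values for Atxn7l1 and Pole3 was not tested either.

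Usp27x had the largest absolute difference from WT in this comparison, on few reads. Its values were 2.36 and 1.56 CPM in the 2 TAF10KO libraries, 3.21, 0.966 and 1.58 CPM in TAF10HET replicates 1 to 3 and 2.00 and 1.02 CPM in WT replicates 1 and 2, with overlapping groups (log2 difference 0.43, SE 0.33, adjusted p = 0.53 in edgeR). Both Atxn7l3b and Sf3b3, the most abundant genes of their submodules per length, gave narrower intervals. Atxn7l3b had 125 and 126 CPM in TAF10KO replicates 1 and 2, 135, 127 and 131 CPM in TAF10HET replicates 1 to 3 and 130.4 and 119 CPM in WT replicates 1 and 2. Sf3b3 had 340.0 and 331 CPM in the TAF10KO libraries, 299, 376 and 393 CPM in the TAF10HET libraries and 332 and 370.0 CPM in the WT libraries. For Sf3b3 all groups overlapped. For Atxn7l3b both TAF10KO values lay below all TAF10HET values and within the range of WT. The 95% interval of the log2 difference between TAF10KO and WT was -0.18 to 0.19 for Atxn7l3b and -0.32 to 0.20 for Sf3b3.

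In the comparison of TAF10HET with WT livers, no member was called, against 0.00633% of all genes tested in edgeR's quasi-likelihood fit. DESeq2 also called 0 members, beside 0.057% of all genes. At an unadjusted p under 0.05 there was 1 member, Eny2, with a log2 difference of 0.29 (SE 0.081, adjusted p = 0.999), which is 3.33% of the members beside 3.35% of all genes. The median over the 30 members was 0.013 beside 0.0088 for all genes.

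Between TAF10KO and TAF10HET, the gene called was Eny2, which encodes a small subunit that holds the deubiquitinase module together and also serves in the TREX-2 complex of mRNA export. The gene (ENSMUSG00000022338) lies at chr15:44428042-44438256 on the plus strand of mm10, by GENCODE M21. Eny2 had 41.9 and 33.4 CPM in TAF10KO replicates 1 and 2, 56.4, 46.5 and 45.2 CPM in TAF10HET replicates 1 to 3 and 49.6 and 35.2 CPM in WT replicates 1 and 2. Every TAF10KO value lay below every TAF10HET value, and on each date code the WT library lay between the TAF10KO and TAF10HET libraries. Eny2 was lower in TAF10KO by a log2 difference of -0.45 (SE 0.080, adjusted p = 0.043 in edgeR), with -0.43 on the first and -0.46 on the second date code. This was 1 of 30 members called, 3.33%, against 1.61% of all genes (1.15% higher, 0.456% lower). At an unadjusted p under 0.05 there were 7 members, 23.3%, beside 17.1% of all genes. DESeq2 called Eny2 as lower and Atxn7l1 as higher, beside 4.37% of all genes.

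The share of all genes called between TAF10KO and TAF10HET, 1.61% with all 7 libraries and both terms, was lower in several alternatives. It was 0.269% and 0.101% without TAF10HET replicate 2 or 3. In the groups compared alone it was 0.166%, and without the date term 0%. The Eny2 call depended on the libraries in the fit too. It was lost when either WT library was left out, or TAF10HET replicate 2 or 3, in a fit of the groups compared alone, and in a fit without the date code as a replicate block, with values between -0.52 and -0.39 and adjusted p-values between 0.0013 and 0.95 over 17 alternatives. Without TAF10KO replicate 1 both Eny2 and Dr1 were called lower, and without TAF10KO replicate 2 Eny2 was called lower and Atxn7l1 and Trrap higher, beside 7.41% and 3.95% of all genes. These calls too rest on 1 TAF10KO library and the spread within the other groups. Against WT, Eny2 differed by -0.16 in TAF10KO (SE 0.086, adjusted p = 0.37). The TAF10KO comparisons with WT and with TAF10HET share the TAF10KO libraries. Of the cell-type markers, 3 of 11 erythroid and 1 of 7 macrophage were called lower in TAF10KO than in TAF10HET. In that comparison 3 of 8 endothelial and 2 of 8 neutrophil markers were higher. Against WT, 1 of the 11 erythroid markers was called lower in TAF10KO and 1 was called higher in TAF10HET. The part of cell makeup in the value for Eny2 was not tested.

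**Figure D3:**
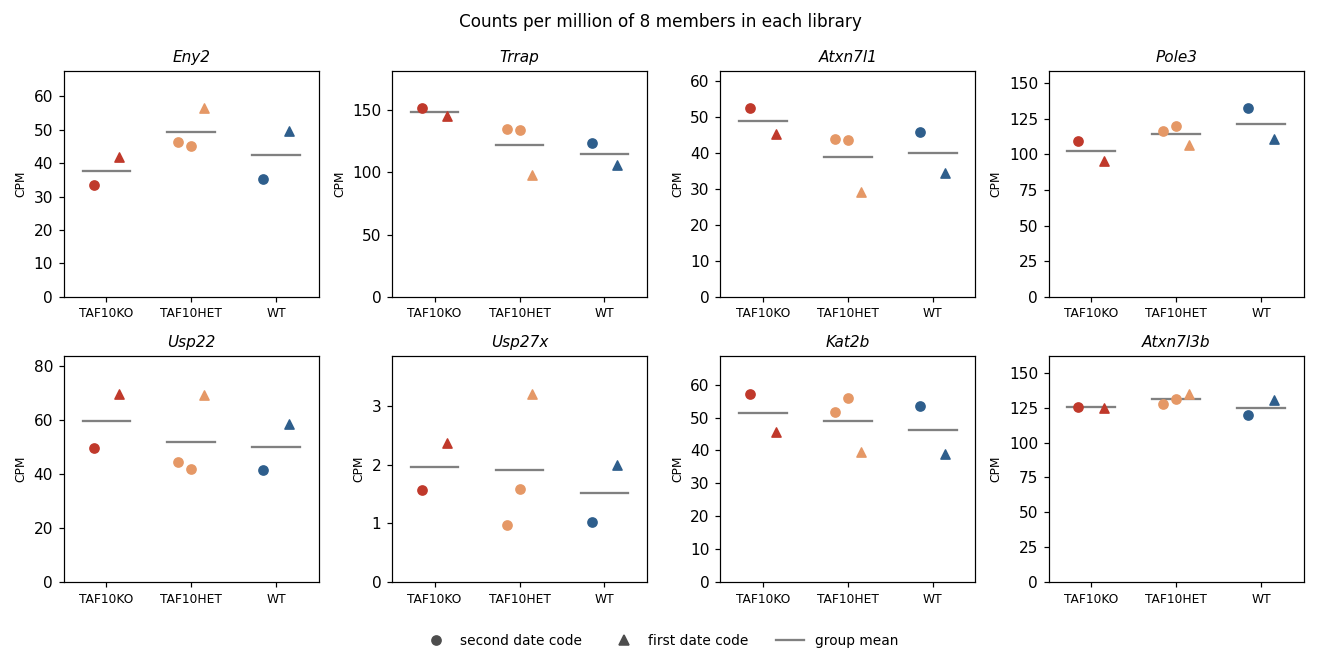
CPM (y axis, from 0) of 8 members in each library, grouped by genotype, with circles for the second and triangles for the first date code and a grey line at the group mean. The 2 TAF10KO points of Eny2 at 33.4 and 41.9 CPM lie below the 3 TAF10HET points, while Usp22 separates by date code in each genotype.

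The date code gave more called subunit genes than any genotype comparison. In the same fit, 16 of the 30 members differed between the second and the first date code, 12 higher and 4 lower, which is 53.3% of the members against 41.4% of all genes tested (edgeR's quasi-likelihood test). Higher calls took 40% of the members against 18.7% of all genes, and lower calls 13.3% against 22.7%. The median log2 difference was 0.18 over the members and 0.019 over all genes. All 16 called members had the same sign within TAF10KO, TAF10HET and WT, and 23 of all 30 did. The calls rest on these same within-genotype differences, so the shared sign is no separate support. Its share over all genes was not computed. DESeq2 also gave 12 higher and 4 lower members, and it called 39.1% of all genes. With upper-quartile factors the split was 6 higher and 5 lower, 36.7% of the members beside 37.3% of all genes, whose median was then -0.061. The count of calls fell to 3 without WT replicate 2 (10% of the members beside 19.3% of all genes) and to 4 without WT replicate 1 (13.3% beside 19.6%). It was 8 without TAF10HET replicate 1 (26.7% beside 33%), 9 without TAF10HET replicate 2 (30% beside 31.7%) and 8 without TAF10HET replicate 3 (26.7% beside 29%). In each of these 6 fits the share of members called was below that of all genes, so the larger share among the members did not hold in them. On the same contrast 7 of 7 mesenchymal, 8 of 8 endothelial, 7 of 8 hepatocyte and 6 of 7 macrophage markers were lower, and 6 of 11 erythroid, 3 of 8 neutrophil and 2 of 7 megakaryocyte markers were higher. The part of cell makeup in the members' values was not tested.

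**Figure D4:**
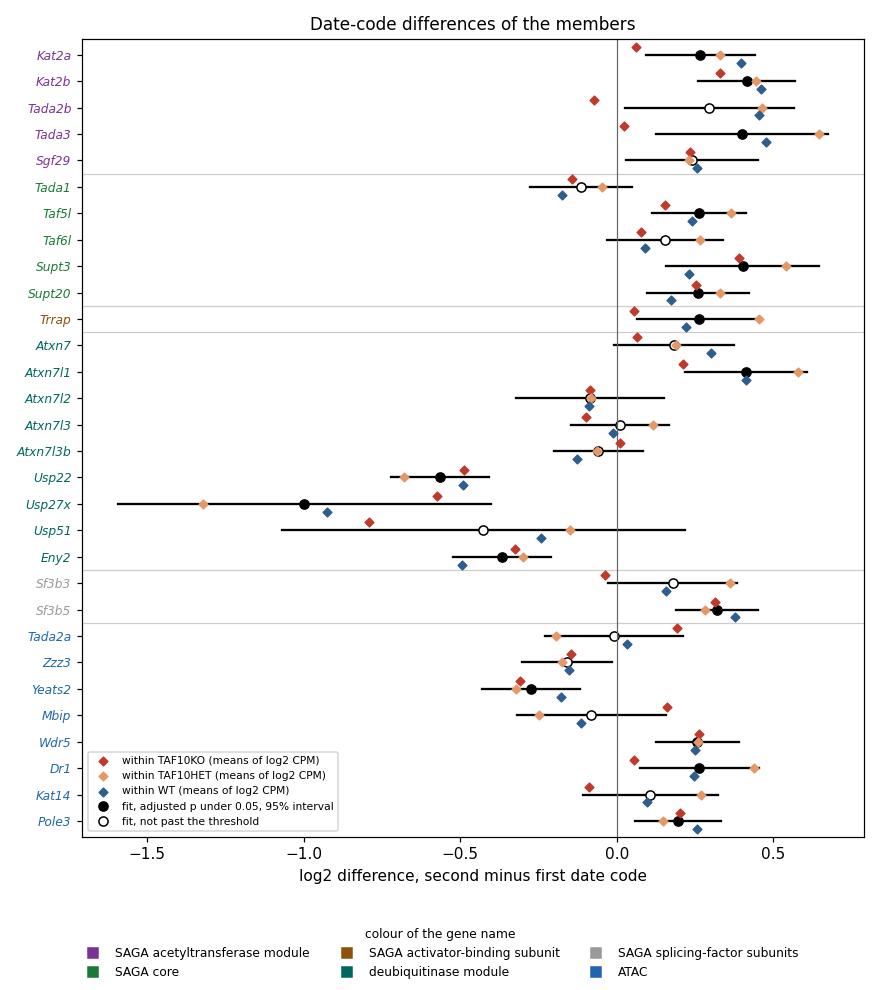
Log2 difference of the 30 members between the second and first date code, from the fit with its 95% interval (black, filled where the adjusted p is under 0.05) and within each genotype (coloured diamonds). All 5 acetyltransferase genes lie right of 0, whereas Usp22 at -0.56, Usp27x at -0.998, Eny2 at -0.37 and Yeats2 at -0.28 lie left of it.

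Promoters are shown for 4 of these 16 genes, the largest rises and falls among those with exactly 1 start in the table used, so that the sequence of genes that moved either way can be read. Each window runs from 250 bases before to 50 bases after the start in RefSeq, build GRCm38.p6, and is written 5′ to 3′ on the gene's strand. Capitals mark motif matches, which were searched on both strands. The GATA motif took adenine or thymine before its name letters and a purine after them, and the ETS motif was searched as CCGGAA. The CCAAT box was searched by its name letters, the TATA box as TATAAA, and the motif of the factor NRF1 as GCGCNTGCGC. Supt3 (chr17:44776916-44777215, plus strand) and Tada3 (chr6:113377789-113378088, minus strand) were higher on the second date code. Usp27x (chrX:7375781-7376080, minus strand) and Yeats2 (chr16:20140813-20141112, plus strand) were lower.
Supt3: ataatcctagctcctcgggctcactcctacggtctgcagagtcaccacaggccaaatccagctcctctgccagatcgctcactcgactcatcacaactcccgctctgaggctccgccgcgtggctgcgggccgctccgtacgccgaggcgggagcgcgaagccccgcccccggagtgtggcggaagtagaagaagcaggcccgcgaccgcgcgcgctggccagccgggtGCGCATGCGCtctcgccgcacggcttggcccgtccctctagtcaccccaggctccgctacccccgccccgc
Tada3: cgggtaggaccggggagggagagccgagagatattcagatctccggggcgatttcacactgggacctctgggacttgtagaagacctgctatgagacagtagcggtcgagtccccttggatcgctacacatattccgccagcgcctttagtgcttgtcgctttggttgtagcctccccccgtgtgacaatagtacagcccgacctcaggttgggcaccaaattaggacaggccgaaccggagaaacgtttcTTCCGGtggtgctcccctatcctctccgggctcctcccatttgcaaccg
Usp27x: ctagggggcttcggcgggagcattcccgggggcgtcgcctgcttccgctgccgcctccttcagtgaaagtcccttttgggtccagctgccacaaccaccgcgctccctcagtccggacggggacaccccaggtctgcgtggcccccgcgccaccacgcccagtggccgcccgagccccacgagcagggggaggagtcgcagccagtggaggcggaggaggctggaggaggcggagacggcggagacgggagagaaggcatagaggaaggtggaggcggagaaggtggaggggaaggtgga
Yeats2: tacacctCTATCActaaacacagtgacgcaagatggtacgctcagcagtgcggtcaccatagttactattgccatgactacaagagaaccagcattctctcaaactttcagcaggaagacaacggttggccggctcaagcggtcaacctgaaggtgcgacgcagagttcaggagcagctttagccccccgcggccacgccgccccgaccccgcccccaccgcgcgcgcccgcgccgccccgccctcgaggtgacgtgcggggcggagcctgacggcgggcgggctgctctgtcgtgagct
Supt3 holds an NRF1 match and Tada3 an ETS match on the opposite strand, Yeats2 a GATA match on the opposite strand and Usp27x none of the 5. Over all members, 26 of the 30 genes matched the table with 36 windows, and Tada1, Usp22, Eny2 and Sf3b5 have no window here. ETS matches lay in 27.8% of the 36 windows against 19.3% of the 19820 windows of protein-coding genes, and NRF1 matches in 13.9% against 6.68%. GATA matches lay in 19.4% against 25.0%, CCAAT in 16.7% against 37.8% and TATAAA in 2.78% against 11.9%. Over all 32851 windows of the table the shares were 14.9% for ETS, 4.60% for NRF1, 29.8% for GATA, 37.4% for CCAAT and 13.6% for TATAAA. The median GC content was 61.2% in the members' windows and 57.0% in those of all protein-coding genes. The matches describe letters in these windows only.

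In the acetyltransferase module of SAGA, all 5 genes had positive values on the second date code and 3 passed the test. Kat2b had 57.2, 51.6, 55.9 and 53.6 CPM on the second date code (TAF10KO replicate 2, TAF10HET replicates 2 and 3, WT replicate 2), against 45.5, 39.4 and 39.0 CPM on the first (TAF10KO, TAF10HET and WT replicate 1). Values by date code keep this order of libraries for the genes that follow. The date codes did not overlap for Kat2b (ENSMUSG00000000708, chr17:53566861-53672720, plus strand), and the log2 difference was 0.41 (SE 0.066, adjusted p = 0.0028 in edgeR). This call held in all 17 alternatives. Of the other date-code calls Usp22 also held in all of them, and the rest were lost in between 1 alternative (Sf3b5) and 11 (Pole3). An annotated pseudogene copy of Kat2b makes its count less certain.

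Kat2a, the other acetyltransferase, had 66.6, 68.9, 67.1 and 70.6 CPM on the second date code against 63.8, 54.2 and 53.6 CPM on the first. Tada3, the adaptor shared with ATAC, had 34.9, 37.7, 38.5 and 38.4 CPM against 34.3, 24.4 and 27.5 CPM. In both genes the date codes did not overlap, but TAF10KO replicate 1 lay just under the second date code. The log2 differences were 0.27 for Kat2a (SE 0.074, adjusted p = 0.025) and 0.40 for Tada3 (SE 0.12, adjusted p = 0.031). Within TAF10KO alone they were 0.062 and 0.024, against 0.40 and 0.48 within WT. The difference of TAF10KO from WT between the 2 date codes was -0.33 for Kat2a, -0.45 for Tada3 and -0.53 for the SAGA adaptor Tada2b, with adjusted p-values of 0.18, 0.16 and 0.15. No member passed that test of the difference itself, against 1.15% of all genes. Tada2b and Sgf29, the reader of trimethylated H3K4, had log2 differences of 0.30 and 0.24 between date codes with adjusted p-values of 0.076 and 0.068.

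In the core, Supt3, Taf5l and Supt20 rose on the second date code. Supt3, a histone-fold protein, had 13.0, 11.7, 12.1 and 10.5 CPM on the second date code against 9.88, 8.17 and 8.96 CPM on the first, without overlap (log2 difference 0.40, SE 0.10, adjusted p = 0.019 in edgeR). Taf5l, a WD40 relative of TAF5 and the most abundant core gene per length, had 72.3, 83.7, 80.2 and 75.3 CPM against 65.0, 63.6 and 63.8 CPM, again without overlap (0.26, SE 0.064, adjusted p = 0.015). Supt20, a scaffold of the core, had 39.2, 32.0, 32.4 and 33.5 CPM against 32.9, 25.6 and 29.7 CPM. Its date codes overlapped, because TAF10KO replicate 1 lay above both second-code TAF10HET libraries (0.26, SE 0.070, adjusted p = 0.022). Tada1 and Taf6l, the partners of TAF12 and TAF9 in the core, gave -0.12 and 0.15 and did not pass. Trrap passed at 0.26 (SE 0.085, adjusted p = 0.042) with the date codes overlapping.

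The deubiquitinase module split in direction, with 1 gene higher and 3 lower of 9. Usp22 (ENSMUSG00000042506, chr11:61151785-61175055, minus strand), the catalytic subunit, had 49.6, 44.5, 41.9 and 41.4 CPM on the second date code against 69.6, 69.2 and 58.3 CPM on the first. All 4 second-code libraries lay below all 3 first-code ones, and the log2 difference was -0.56 (SE 0.067, adjusted p = 8.5e-04 in edgeR). Within each date code Usp22 was highest in TAF10KO, with a log2 difference from WT of 0.26 (SE 0.086, adjusted p = 0.20). Eny2 fell by 0.37 on the log2 scale (SE 0.067, adjusted p = 0.0050) and Usp27x by 0.998 (SE 0.26, adjusted p = 0.018). Usp27x had no overlap between date codes, and Eny2 did, since TAF10KO replicate 1 lay below both second-code TAF10HET libraries. Atxn7l1 was the gene that rose, by 0.41 (SE 0.083, adjusted p = 0.0073). Atxn7, Atxn7l2, Atxn7l3 and Atxn7l3b gave 0.18, -0.086, 0.011 and -0.060, none past the test.

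Of the splicing-factor pair, Sf3b5, a small SF3b subunit, had 73.0, 81.6, 81.8 and 83.5 CPM on the second date code against 58.7, 67.2 and 64.3 CPM on the first. These did not overlap, with a log2 difference of 0.32 (SE 0.056, adjusted p = 0.0041 in edgeR), and within each date code the TAF10KO library was the lowest. Against WT, Sf3b5 differed by -0.16 in TAF10KO (SE 0.071, adjusted p = 0.29). Sf3b3 gave 0.18 between date codes (adjusted p = 0.14).

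In ATAC, Wdr5, Dr1 and Pole3 were higher and Yeats2 lower among 8 genes. Wdr5 had 120.2, 116, 119.8 and 119 CPM on the second date code against 100.1, 98.5 and 101 CPM on the first, without overlap (log2 difference 0.26, SE 0.057, adjusted p = 0.011 in edgeR). Dr1 had 89.8, 121, 120.5 and 112 CPM against 86.5, 89.2 and 94.6 CPM, with overlap because TAF10KO replicate 2 lay among the first-code values (0.26, SE 0.081, adjusted p = 0.036). Pole3 gave 0.20 (SE 0.059, adjusted p = 0.033) and also overlapped. Yeats2, a reader of acylated histones that belongs to ATAC but not SAGA, had 50.6, 47.2, 52.5 and 50.3 CPM against 62.7, 62.2 and 56.9 CPM, without overlap (-0.28, SE 0.067, adjusted p = 0.015). The remaining ATAC genes did not pass. Kat14, the second acetyltransferase of ATAC, gave 0.11, the adaptor Tada2a -0.0081, Mbip -0.081 and the DNA-binding subunit Zzz3 -0.16 (adjusted p = 0.074).

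Complexes that share or neighbour these subunits were followed in 7 further lists of 64 genes, and none of these genes was called in any of the 3 genotype comparisons in edgeR. At an unadjusted p under 0.05 there were 17 of them in TAF10KO against WT, 14 in TAF10KO against TAF10HET and 1 in TAF10HET against WT, which is 26.6%, 21.9% and 1.56% of the 64 beside 17.9%, 17.1% and 3.35% of all genes. DESeq2 called 3 (Taf10, Hat1 and Pole2), 2 (Taf10 and Hat1) and 0 of the 64 in these comparisons. Over all genes it called 3.73%, 4.37% and 0.057%. Among the other histone-fold subunits of SAGA, Supt7l, the histone-fold partner of TAF10 in SAGA, had 24.1 to 24.7 CPM in TAF10KO, 20.5 to 24.0 CPM in TAF10HET and 24.2 to 25.0 CPM in WT, with a log2 difference of -0.011 between TAF10KO and WT (SE 0.098, adjusted p = 0.97). Hat1, a histone acetyltransferase outside SAGA and the most abundant per length of 10 such genes, had 137 to 153 CPM in TAF10KO against 184 to 186 CPM in TAF10HET and 185 to 197 CPM in WT. Its TAF10KO values lay below all others, with a log2 difference of -0.40 from WT (SE 0.081, adjusted p = 0.082) and a call in DESeq2 (adjusted p = 0.0036). The most abundant genes of the other lists gave log2 differences from WT of -0.10 for Taf9 of the histone-fold list, -0.063 for Ruvbl1 of TIP60, -0.27 for Usp7 of the H2B list, -0.25 for Phf5a of SF3b, -0.40 for Dpy30 of the WDR5 partners and 0.020 for Drap1, the partner of DR1. Their adjusted p-values were between 0.12 and 0.94.

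Between date codes these neighbours changed as well. Of the partners of Pole3 and Dr1, 6 of 7 were higher, with Baz1a of CHRAC at 0.64 (SE 0.092, adjusted p = 0.0019) and Drap1 at 0.39 (SE 0.074, adjusted p = 0.0060). Of the WDR5 partners in SET1 and MLL complexes, 5 of 11 were higher, led by the methyltransferases Kmt2c at 0.59 and Kmt2d at 0.47. Of TIP60 and NuA4 subunits 4 of 16 were higher, with Ruvbl2 at 0.41 and Vps72 at 0.36. Of H2B ubiquitin ligases and other H2B deubiquitinases 3 of 11 were higher, with the conjugating enzyme Ube2a at 0.47 and Usp7 at 0.38. Among the other SF3b subunits 3 of 5 were higher, with Phf5a at 0.22 and Sf3b2 at 0.31, and Taf12 was the 1 of 5 histone-fold genes to rise, by 0.32. The other histone acetyltransferases had 2 higher and 1 lower of 10, with Kat6b at -0.61 and Kat7 at 0.27. These counts stand beside the 18.7% of all genes that were higher and the 22.7% that were lower.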

How the data were processed

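Raw read counts per Ensembl mouse gene were made by the authors and deposited without normalisation. The submitters' processing notes name the build mm10, TopHat2 2.0.8 and DESeq2, and the sources used here give neither counting program nor strand setting. Summary lines for reads in no gene, ambiguous or aligned to several places (6.81% to 10.1%, 3.98% to 5.94% and 14.1% to 22.2% of reads) were left out. GENCODE M21 named 37607 of 39017 genes; the other 1410 held 0.212% of counts.

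A model with group and date code was fitted to all 7 libraries in edgeR 4.0.16 under R 4.3.3 (filterByExpr by group, TMM factors, robust quasi-likelihood F test), two-sided, and Benjamini-Hochberg adjustment over 15800 genes. Whether the livers came from separate litters is not stated, so p-values measure the spread between these libraries. Libraries of different groups with the same date code deviated from their group means together (correlation across genes 0.40 to 0.74 in 8 pairs, -0.74 to -0.40 in 8 pairs with different codes), so the code served as a replicate block; the pairing comes from the titles. Deviations in a group of 2 are mirror images by construction. SE is the log2 difference over the square root of F. A prior count of 2 entered log2 CPM. The test was tried on simulated data. Values per library are given for Taf10, called members, and in each submodule the most abundant member and the one farthest from WT in TAF10KO; further lists give up to 2 called genes or the most abundant one. Supt7l was picked with its values known. The members, lists, marker lists, tests and the date term were chosen with earlier results of these data known. Alternatives were other scaling factors, DESeq2 1.42.0, other filters on low counts, globin genes left out, no date term, embryo sex as a term, fits of the compared groups alone, dispersions without robust weighting, and leaving out each library. For the date-code comparison, the genotype term was dropped in place of the date term. There, the fit of compared groups left out the TAF10HET libraries.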

Additional observations from a re-analysis of the deposited data

Results flagged for a closer look

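No member had a difference of TAF10KO from WT that changed between date codes past the adjusted threshold in edgeR's test of that change. Of the 64 genes in the neighbouring lists 2 did, beside 1.15% of all genes tested. For Sf3b4, an SF3b subunit, the log2 value of TAF10KO minus WT was lower on the second than on the first date code by -0.65 (SE 0.11, adjusted p = 0.028). For Setd1b, a methyltransferase that works with WDR5, the same change was -0.63 (SE 0.12, adjusted p = 0.042). With 1 TAF10KO and 1 WT library per date code, both rest on the spread between 2 TAF10HET libraries and on the spread shared across genes.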

How the results depend on the processing

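Without the date code as a replicate block, 0 members were called between TAF10KO and TAF10HET instead of 1, beside 0% of all genes instead of 1.61%. For date codes, a fit without the genotype term called 10 members instead of 16. DESeq2 called 1 member between TAF10KO and WT and 2 between TAF10KO and TAF10HET, a fit with no filter on low counts 1 and 4 (5.09% and 5.45% of all genes), and embryo sex as a term 3 and 7, in fits that called 17.2% and 17.4% of all genes. With only the groups compared, 0 members were called between TAF10KO and TAF10HET, beside 0.166% of all genes. For date codes, a fit of TAF10KO and WT libraries alone, without TAF10HET, called 5 members instead of 16, with a median of 0.12. Between date codes the share of members called was below that of all genes in further fits. The shares were 33.3% and 35.1% without the genotype term, 16.7% and 27.5% without TAF10HET libraries, and 39.3% and 41.9% with the stricter low-count filter. Upper-quartile factors gave a date-code median of 0.10. Leaving out 1 library at a time gave 0 to 1 members called between TAF10KO and WT, 0 to 3 between TAF10KO and TAF10HET and 3 to 18 between date codes. With any 1 of the 7 libraries left out, the medians over members ran between -0.012 and 0.069 for TAF10KO against WT. They ran between -0.015 and 0.070 for TAF10HET against WT, -0.032 and 0.032 for TAF10KO against TAF10HET and 0.12 and 0.18 between date codes. No called member changed sign in any alternative. Over single members and alternatives, a call was lost 79 times between date codes and 6 times between TAF10KO and TAF10HET. The cause of these shifts was not tested. The lowest counts, those of Usp27x and Usp51, gave the widest intervals.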
